A study of Mus musculus with 200 samples.

Results

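Gene expression was compared between N2 mouse embryos that were heterozygous (B6/Cast) and embryos that were homozygous (B6/B6) at the beta-globin locus on chromosome 7. The members were chosen by the deposited genotype at *Hbb-b1*. Of the 154 N2 embryos with a genotype, 64 were B6/Cast and 90 were B6/B6 at this gene. The 147 that also had a somite number, 60 B6/Cast and 87 B6/B6, entered the comparison. They came from a series of 200 samples, in which single whole embryos of embryonic day 11.5 were profiled by 3SEQ, an RNA sequencing method that reads the 3′ ends of transcripts. Every N2 embryo came from a backcross of an animal with 1 B6 and 1 Cast genome (F1) to the B6 strain, so every embryo carried at least 1 B6 copy of each autosomal gene, and both groups were mosaics of B6/Cast and B6/B6 segments elsewhere. B6 (C57BL6/J) is a common laboratory strain of mouse, and Cast (Castaneus) an inbred strain derived from wild mice of another subspecies. The authors called genotypes from the allele-specific reads of many genes along each chromosome, so that no separate DNA typing stands behind them. Among the B6/Cast embryos, 36 had a B6 mother and 24 an F1 mother, and among the B6/B6 embryos 49 and 38, and all carried B6 mitochondria.

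The embryos came from 29 litters and 14 sequencing lanes, 13 of which held embryos of 1 kind of mother. Between 245220 and 5370322 reads per embryo fell on genes, with a median of 2292026, and expression is given below as RPM, the reads of a gene scaled to a common total for every embryo. Embryos of a litter share parents and environment, so that p-values measure the spread between embryos, part of which is shared by littermates. The B6/Cast embryos were slightly younger, with 48.2 ± 3.02 somites (SD, n = 60) against 49.2 ± 2.90 (SD, n = 87), and somite number and lane were terms in every test unless stated. In whole embryos, fewer red blood cells and less RNA per cell cannot be told apart.

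Haemoglobin is a tetramer of alpha-type and beta-type globin chains. Mouse beta-globin genes lie in 1 cluster, in which the embryonic genes *Hbb-y* and *Hbb-bh1* are used by primitive red blood cells from the yolk sac and the adult genes by definitive red blood cells from the fetal liver. A shared upstream control region serves the whole cluster, and the harvested stage falls in the period in which the liver starts to release definitive cells. The alpha-globin genes lie on chromosome 11 and went through meiosis independently of the beta-globin locus.

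2 genes of the cluster differed between the genotypes, in opposite directions. *Beta-s*, an adult beta-globin entry, was higher in B6/Cast embryos, and *Hbb-bh1*, an embryonic one, was lower. These were 2 of the 9 globin entries tested, against 0.319% of all 10040 genes tested (0.129% called higher and 0.189% called lower in B6/Cast embryos). Most of these genes are unlinked to the locus. Of the 61 tested genes 1 to 5 Mb from *Hbb-b1*, 11.5% were called. By the genotype of the gene itself, 24.7% of 792 chromosome 7 genes passed in a linear model. The 2 of 9 are thus not read as an excess. The 9 count *Hbb-b1* and *Hbb-b2*, and *Hba-a1* and *Hba-a2*, separately, though these pairs held nearly or fully equal counts. The other adult entries, the main embryonic gene *Hbb-y* and all alpha-globin entries tested did not pass the threshold. Expression of single embryos overlapped between the genotypes for every globin gene (see the plot of globin expression per embryo).

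*Beta-s* ran from 671 RPM through a median of 3487 to 17564 in B6/Cast embryos, and from 144 through 2419 to 15873 in B6/B6 embryos. The ranges overlapped almost entirely, and the lowest embryos were B6/B6. With lane and somite number in the model, the level in B6/Cast embryos was 1.84-fold that in B6/B6 embryos (log2 fold change 0.88, SE 0.17, adjusted p = 3.19e-04, edgeR). Among the 24 litters that held both genotypes, the mean of the B6/Cast littermates was the higher one in 21. The label *Beta-s* is listed in RefSeq as a synonym of *Hbb-bs*, the adult beta-globin gene of strains with the single haplotype. The annotation used here gave it no position of its own.

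*Hbb-bh1* (chr7:110990150-110991678 in the mm9 genome build) ran from 563 RPM through a median of 3126 to 17535 in B6/Cast embryos, and from 745 through 5362 to 29427 in B6/B6 embryos. The difference in medians was in the other direction from that of *Beta-s*. The adjusted level was 0.686-fold (log2 fold change -0.54, SE 0.12, adjusted p = 0.00796, edgeR), and the B6/Cast mean was the lower one in 20 of the 24 litters. Without lane N this call was lost (log2 fold change -0.46, adjusted p = 0.0995), while that of *Beta-s* passed with each of the 14 lanes left out.

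Both differences kept their direction in subsets of the embryos, though not always their call. In embryos of B6 mothers alone the log2 fold change was 0.70 at *Beta-s* and -0.57 at *Hbb-bh1* (adjusted p = 0.310 for each), and in those of F1 mothers alone 1.04 (adjusted p = 0.0254) and -0.50 (adjusted p = 0.847). In flowcell 1 alone the values were 1.14 (adjusted p = 0.0260) and -0.47 (adjusted p = 0.688), and in flowcell 2 alone 0.64 (adjusted p = 0.809) and -0.59 (adjusted p = 0.579). Without a term for somite number they were 0.60 (adjusted p = 0.444) and -0.42 (adjusted p = 0.349, all edgeR). A term for genotype by mother or genotype by flowcell passed for 0 of 10040 genes (edgeR), with 351 and 369 at an unadjusted p under 0.05.

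**Figure D1:**
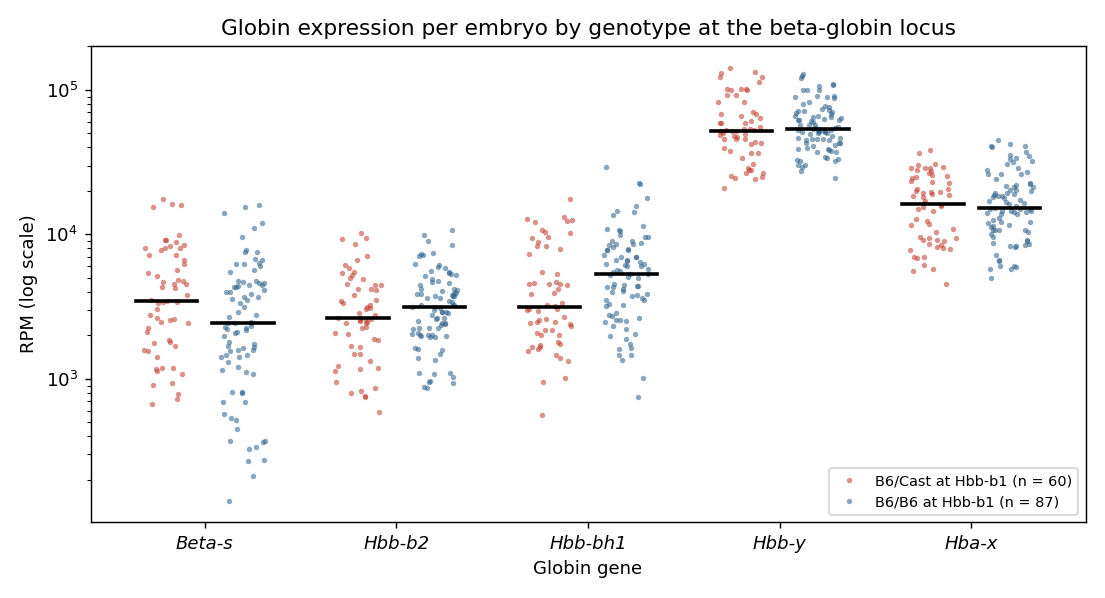
RPM of 5 globin genes on a log axis, 1 point per embryo (60 B6/Cast in red, 87 B6/B6 in blue), with black bars at the medians; horizontal scatter within a column has no meaning. The points overlap in every pair, with the *Beta-s* median higher (3487 against 2419 RPM) and the *Hbb-bh1* median lower (3126 against 5362 RPM) in B6/Cast embryos.

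*Hbb-b1* and *Hbb-b2* held the same count in 142 of the 147 embryos and are given once, as *Hbb-b2*. The authors discarded reads that aligned nearly as well elsewhere. How the remaining reads were shared out among these entries and *Beta-s* is not recorded, so that the *Hbb-b2* entry may hold reads of the *Beta-s* copy. Contrasts between the adult entries are thus contrasts of entries and not of separate genes. *Hbb-b2* ran from 592 RPM through 2642 to 10173 in B6/Cast embryos and from 864 through 3133 to 10679 in B6/B6 embryos. Its log2 fold change was 0.06 (SE 0.12, 95% interval -0.18 to 0.30), so that a difference of the size of that at *Beta-s* lay outside its interval. *Hbb-y*, the most read gene of the cluster, ran from 21023 RPM through 52152 to 142857 and from 24482 through 53689 to 128110, with a log2 fold change of 0.08 (SE 0.10, 95% interval -0.13 to 0.28). The beta-globin symbols *Hbb-bh0* and *Hbb-bh2* were not in the tables under these names.

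Among the alpha-globin genes, *Hba-x*, the embryonic alpha-type chain, ran from 4525 RPM through 16245 to 38188 in B6/Cast embryos and from 4967 through 15322 to 44908 in B6/B6 embryos. Its log2 fold change was -0.07 (SE 0.11). The adult genes *Hba-a1* and *Hba-a2* held identical counts in all 147 embryos, at medians of only 7.05 and 9.51 RPM. The authors discarded reads that fit more than 1 place, and the part of this step in the low counts was not tested. The log2 fold change of -0.25 (SE 0.18) describes these few reads. By its own genotype, *Hba-a1* differed by 0.92 (log2) in a linear model on log2(RPM + 1). That genotype was the one at *Hbb-b1* in 44.5% of embryos. With it added, the value for the one at *Hbb-b1* was -0.03. *Hbq1b*, a theta-globin, had medians of 9.61 and 10.2 RPM and a log2 fold change of -0.07 (SE 0.15), and *Hbq1a* lay under the minimum of 5 RPM for the mean over embryos.

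The stretches just before the start sites of the 4 main genes of the cluster are shown because *Beta-s* and *Hbb-bh1* were called in opposite directions and *Hbb-y* and *Hbb-b2*, beside them in the cluster, were not called. They were read from the mm9 genome and lie on the minus strand of chromosome 7. The starts are those of RefSeq, found in mm9 by an exact match of the 300 bases of its promoter table (GRCm38.p6), and for *Hbb-bh1* that of the GENCODE annotation. Capitals mark CACCC (the site of Krüppel-like factors such as KLF1), the promoter element CCAAT, the core GATA of the sites of the factors so named, and forms of the TATA box spelled TATAA in some promoters and ATAAAA in others. Both strands were searched, and adjoining matches run together.
Hbb-bs (Beta-s), chr7:110976443-110976562: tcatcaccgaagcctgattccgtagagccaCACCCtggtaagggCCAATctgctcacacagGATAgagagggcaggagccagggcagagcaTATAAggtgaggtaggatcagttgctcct
Hbb-bt, chr7:110962438-110962557: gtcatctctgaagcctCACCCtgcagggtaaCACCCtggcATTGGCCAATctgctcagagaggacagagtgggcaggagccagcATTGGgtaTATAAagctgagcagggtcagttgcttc
Hbb-y, chr7:111001722-111001841: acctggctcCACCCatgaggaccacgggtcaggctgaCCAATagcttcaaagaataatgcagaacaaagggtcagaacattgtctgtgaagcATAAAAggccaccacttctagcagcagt
Hbb-bh1, chr7:110991679-110991798: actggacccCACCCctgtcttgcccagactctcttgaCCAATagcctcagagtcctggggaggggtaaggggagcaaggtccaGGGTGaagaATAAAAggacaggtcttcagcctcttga

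*Hbb-bs* and *Hbb-bt* are the adult genes of this genome, and their start sites lie within the genes named *Hbb-b1* (chr7:110975048-110976610) and *Hbb-b2* (chr7:110961038-110962510) in the GENCODE annotation of mm9. All 4 stretches hold CACCC and CCAAT. Over the same 120 bases, 31.7% of 32851 RefSeq promoters hold CACCC, 21.3% hold CCAAT and 6.23% hold both. The 2 adult genes have TATAA 29 and 28 bases before the start (11.8% of promoters hold it anywhere in the window), and both embryonic genes have ATAAAA 28 bases before it (8.30%). Only the *Hbb-bs* stretch holds GATA, 59 bases before the start, which 29.5% of promoters hold. These are matches of letters in the B6 genome; the Cast sequence was not analysed here.

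The make-up of the beta-globin reads was compared next, as ratios of reads within each embryo. The ratio of adult (*Hbb-b2* and *Beta-s*) to embryonic (*Hbb-y* and *Hbb-bh1*) reads had a median of 8.83% in B6/Cast and 8.81% in B6/B6 embryos. Adjusted for lane and somite number, it was 1.38-fold higher in B6/Cast embryos (log2 difference 0.46, SE 0.12, two-sided permutation test with 100000 resamples, adjusted over 5 ratios p = 1.67e-04). With *Beta-s* left out of the adult genes the difference was 0.04 (adjusted p = 0.872), and with *Hbb-b2* left out it was 1.00. In embryos of B6 mothers alone it was 0.32, with an adjusted p = 0.0615.

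Within the adult entries, the ratio of *Beta-s* to *Hbb-b2* reads had a median of 137% in B6/Cast and 81.1% in B6/B6 embryos, a 1.95-fold difference (log2 difference 0.97, SE 0.10, adjusted p = 2.5e-05). Within the embryonic genes, the ratio of *Hbb-bh1* to *Hbb-y* reads had medians of 7.02% and 10.1%, a 0.673-fold difference (log2 difference -0.57, SE 0.11, adjusted p = 2.5e-05). Both kept their direction and passed in embryos of B6 and of F1 mothers taken alone, at log2 differences of 0.95 and 1.03 for the adult pair and -0.48 and -0.67 for the embryonic pair. These 2 ratios were added after the data were seen. Each sets a called entry against one that was not called, in the same embryos and counts, so that neither is separate evidence for the calls. Before adjustment, 1e-05 is the smallest p that these permutations can give.

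Summed reads were compared last. The alpha-globin reads were nearly all of *Hba-x*, so that these sums do not measure total globin output. The ratio of beta-globin to alpha-globin reads differed by 0.12 (log2, SE 0.08, adjusted p = 0.127) and the share of all globin genes in the reads on genes by -0.01 (log2, SE 0.08, adjusted p = 0.915). The share ran from 3.05% through 8.48% to 19.6% of reads in B6/Cast and from 3.93% through 8.09% to 19.2% in B6/B6 embryos. Neither ratio passed the threshold.

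Allele-resolved reads gave a view that does not rest on comparing embryos. The authors counted, at each SNP between the strains, reads that matched the B6 or the Cast allele, as votes, and the B6 share of the votes (B6 allele fraction, BAF) was computed in embryos with at least 20 votes at the gene. In B6/B6 embryos, where no Cast allele is present, Cast votes made up 0.130% of *Beta-s* votes with B6 mothers and 0.251% with F1 mothers, and between 0.0622% and 0.399% at *Hbb-b2*, *Hbb-bh1* and *Hbb-y*.

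In the 60 B6/Cast embryos the BAF of *Beta-s* ran from 0.134 through a median of 0.314 to 0.480, so that the Cast allele gave the larger share in all 60. Votes such as these also served to call the genotypes, so that the presence of both alleles is given by the choice of embryos and only their ratio is a measurement. That of *Hbb-bh1* ran from 0.564 through 0.706 to 0.795 in the 23 embryos with enough votes, with the B6 allele ahead in all 23. *Hbb-b2* (0.407 through 0.531 to 0.626) and *Hbb-y* (0.484 through 0.523 to 0.590) lay near equality, with the B6 allele ahead in 52 and 54 of 60 embryos. The 16 F1 embryos, which took no part in the comparison, had a mean BAF of 0.315 ± 0.111 at *Beta-s*, 0.674 ± 0.0912 at *Hbb-bh1* and 0.507 ± 0.0105 at *Hbb-y* (SD, n = 16). They came from reciprocal crosses, and at *Beta-s* the BAF ran from 0.300 through 0.395 to 0.478 in the 8 with a B6 mother and from 0.136 through 0.237 to 0.312 in the 8 with a Cast mother. The first 8 were also older, with a median of 50 somites (48 to 63, n = 7) against 44.5 (41 to 48, n = 6), so that mother and stage cannot be told apart here. At *Hbb-b2* the F1 embryos (0.341 ± 0.0494, SD, n = 16) stood apart from the N2 embryos (0.534 ± 0.0357, SD, n = 60). By cross, the F1 medians at *Hbb-b2* were 0.320 with a B6 mother and 0.362 with a Cast mother. Each F1 column combines 2 sequencing runs. The authors cut the longer F1 reads to the length of the shorter ones, but not the N2 reads. Of the F1 embryos 13 have a somite number, between 41 and 63, so that depth, read length and stage also differ between these sets. Their part in this difference was not tested.

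If a B6 copy gave the same output in both genotypes, the level in B6/Cast over that in B6/B6 embryos would be the reciprocal of 2 times the BAF. From the N2 votes this came to a log2 value of 0.66 for *Beta-s*, -0.46 for *Hbb-bh1*, -0.09 for *Hbb-b2* and -0.07 for *Hbb-y*, beside the measured 0.88, -0.54, 0.06 and 0.08. The F1 votes gave 0.67, -0.43, 0.55 and -0.02, and at *Beta-s* 0.32 with a B6 mother and 1.11 with a Cast mother. The output of the B6 copy was also compared directly, as 2 times the B6 votes, scaled like RPM, in B6/Cast against the B6 votes in B6/B6 embryos. For *Beta-s* the doubled votes had a median of 894 against 1278, and after adjustment the log2 difference was 0.13 (95% interval -0.24 to 0.49, adjusted p = 0.585). For *Hbb-b2* and *Hbb-y* it was 0.07 (-0.18 to 0.32) and -0.11 (-0.41 to 0.18), each with an adjusted p = 0.585 in the same two-sided permutation test. *Hbb-bh1* was not tested in this way. The intervals leave room for differences of these sizes, and the directions at *Beta-s* and *Hbb-b2* were the opposite in embryos of B6 mothers alone. The quantity was added after the data were seen.

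The difference at *Beta-s* was followed over developmental stage, in 3 classes of somite number. In the youngest embryos (42 to 46 somites), *Beta-s* had a median of 1640 RPM in 22 B6/Cast and 696 RPM in 17 B6/B6 embryos. From 47 to 50 somites the medians were 4409 (n = 20) and 2373 RPM (n = 40), and from 51 to 57 somites 8233 (n = 18) and 4370 RPM (n = 30). Without adjustment for lane, the B6/Cast median was thus 2.36, 1.86 and 1.88 times the B6/B6 one. The ratios of means were 2.33, 1.36 and 1.69. The medians were higher in each later class in both genotypes, with the B6/Cast median ahead in each class.

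The allele ratio shifted over the same classes. The BAF of *Beta-s* ran from 0.134 through 0.232 to 0.324 in the youngest class, from 0.243 through 0.315 to 0.419 in the middle one, and from 0.372 through 0.416 to 0.480 in the oldest, whose lowest embryo lay above the highest of the youngest class. The fold computed from the median BAF fell from 2.16 through 1.59 to 1.20 accordingly. In the oldest class the measured ratio of medians was 1.88 and that of means 1.69. In the middle class the ratio of means, 1.36, lay below the computed fold. The BAF of *Hbb-y* had medians of 0.530, 0.523 and 0.517, and that of *Hbb-b2* medians of 0.546, 0.530 and 0.505, with overlapping ranges.

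The level of *Hbb-bh1* was lower in each later class in both genotypes. Its medians were 6419 and 6992 RPM in the youngest class, 4055 and 5515 RPM in the middle one, and 1905 and 4106 RPM in the oldest, each time with the B6/Cast value first. The B6/Cast median was thus 0.918, 0.735 and 0.464 times the B6/B6 one, while the ratios of means, 0.685, 0.819 and 0.458, did not fall step by step. Whether the genotype difference moved with stage was tested for all genes by a term for genotype by somite number. It passed for 4 of 10040 genes (0.0398%), none of them a globin, though *Hbb-y* passed under 1 of 5 alternatives. The change in log2 fold change per somite was -0.03 (SE 0.06, adjusted p = 0.790) at *Beta-s* and 0.05 (SE 0.04, adjusted p = 0.476) at *Hbb-bh1*, the latter opposite in sign to the run of the unadjusted medians, and the smallest adjusted p of a globin gene was that of *Hba-x* (0.13, SE 0.04, adjusted p = 0.0999, edgeR). At *Hbb-y* and *Hbb-b2* the change was 0.10 each (SE 0.04, adjusted p = 0.166 and 0.193, edgeR). An unadjusted p under 0.05 was found for 1954 genes, so that small p-values of this term were common.

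**Figure D2:**
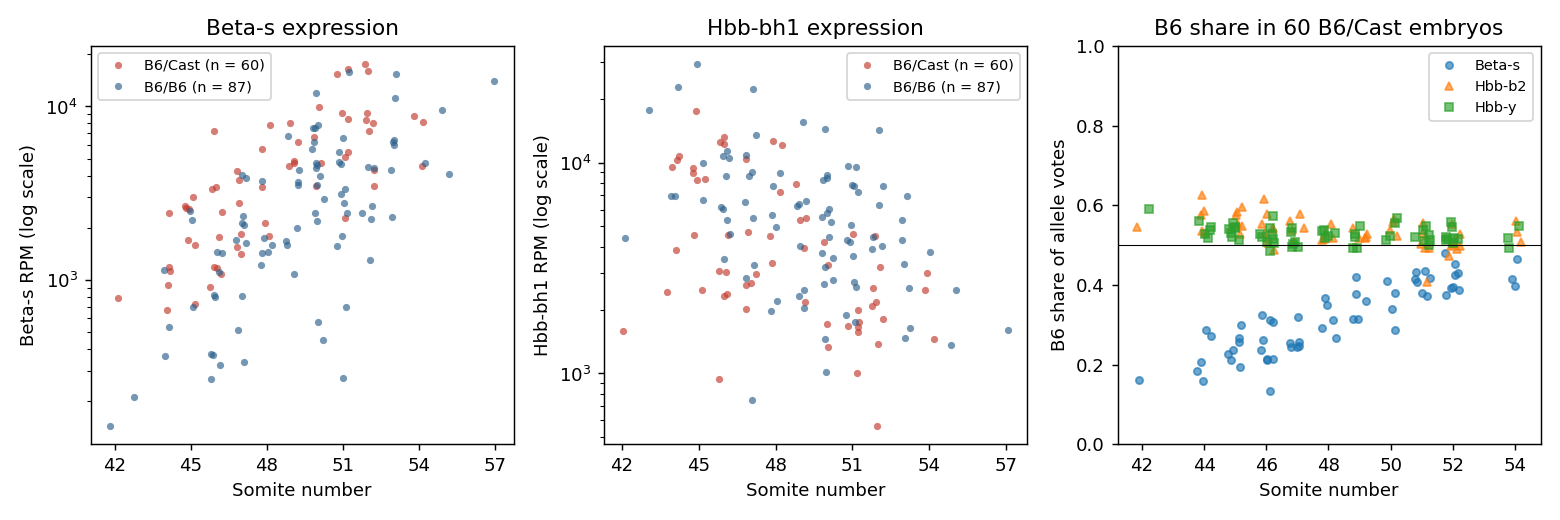
RPM of *Beta-s* and *Hbb-bh1* on a log axis against somite number (60 B6/Cast embryos in red, 87 B6/B6 in blue), and the B6 share of allele votes of 3 genes in the B6/Cast embryos; points are moved sideways slightly to separate them. *Beta-s* is higher and *Hbb-bh1* lower at later stages in both genotypes, and the B6 share of *Beta-s* votes goes from a median of 0.232 in the youngest class to 0.416 in the oldest.

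Expression along chromosome 7 was examined next. Of 2046 chromosome 7 genes in the tables, 792 passed the minimum of 5 RPM, and 31 of these were called (3.91%), 12 higher and 19 lower in B6/Cast embryos. On all other chromosomes 1 of 9248 genes was called. Log2 fold changes of the called genes ran from -0.98 to -0.29 and from 0.26 to 1.22. Genes close to the locus share its genotype in nearly every embryo, and the share of calls declined with distance from *Hbb-b1*. It was 1 of 5 genes within 1 Mb, 11.5% of 61 genes from 1 to 5 Mb, 8.89% of 90 genes from 5 to 20 Mb, 4.51% of 266 genes from 20 to 50 Mb and 0.280% of 357 genes beyond. The classes hold the 779 tested genes with a position. *Beta-s* and *Itpripl2*, both called, are among the 13 without one, and *Hbb-b1* and *Hbb-b2* are counted separately. The median share of embryos with the same genotype as at *Hbb-b1* in these classes was 100%, 98.6%, 96.2%, 85.03% and 61.2%.

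**Figure D3:**
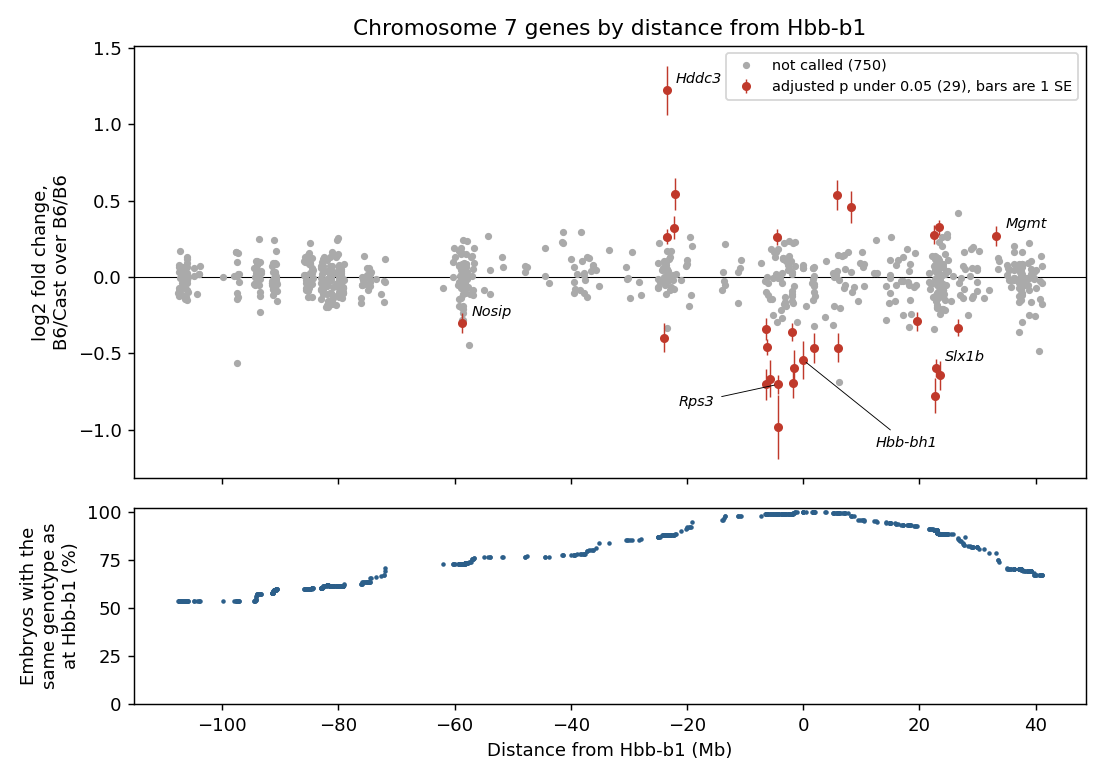
Log2 fold change of 779 chromosome 7 genes against their distance from *Hbb-b1* (above, with 29 called genes in red and bars of 1 SE) and the percentage of embryos whose genotype at each gene is that at *Hbb-b1* (below). Called genes lie between -58.65 and 33.2 Mb from the locus and are on both sides of 0.

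Distances are given from *Hbb-b1*, negative towards smaller coordinates. *Beta-s*, which has no position, is left out of the genes ranked by distance. The surroundings of the cluster are poor in genes that could be tested, since 81 of the 98 genes within 1 Mb carry names of olfactory receptors, which are expressed in sensory neurons of the nose. The tested genes nearest to *Hbb-b1* on the proximal side were *Hbb-b2*, *Trim68*, *Rrm1* (the large subunit of ribonucleotide reductase), *Stim1* (a calcium sensor of the endoplasmic reticulum) and *Rhog* (a small GTPase). On the distal side they were *Hbb-bh1*, *Hbb-y*, *Trim12c*, *Fam160a2* and *Prkcdbp*. Apart from *Hbb-bh1* none of the 10 was called, with log2 fold changes of -0.29 for *Trim68*, 0.07 for *Rrm1*, 0.23 for *Stim1*, -0.06 for *Rhog*, -0.19 for *Trim12c*, -0.04 for *Fam160a2* and -0.15 for *Prkcdbp*. These 7 have the genotype of *Hbb-b1* in between 99.3% and 100% of embryos. *Pgap2*, at -1.60 Mb, is the nearest called gene that is no globin (medians of 4.18 and 7.32 RPM, log2 fold change -0.59, adjusted p = 0.00111, edgeR).

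The smallest p on chromosome 7 belonged to *Rps3*, a protein of the small ribosomal subunit, at -4.35 Mb (chr7:106626406-106632248 in mm9). It ran from 3679 RPM through 7284 to 16348 in B6/Cast and from 7024 through 13065 to 26375 in B6/B6 embryos, and the B6/Cast mean was lower in each of the 24 litters with both genotypes. The log2 fold change was -0.70 (SE 0.06, adjusted p = 6.73e-18). *Snord15b*, a small nucleolar RNA whose annotated position lies within *Rps3*, had medians of 227 and 468 RPM and a log2 fold change of -0.98 (SE 0.21), and reads of the 2 may not be separable in the counts. *Hddc3*, at -23.5 Mb, had the highest log2 fold change and ran from 2.06 through 40.1 to 113 RPM in B6/Cast and from 0.968 through 12.1 to 79.5 RPM in B6/B6 embryos (log2 fold change 1.22, SE 0.16, adjusted p = 1.4e-08). It had the genotype of *Hbb-b1* in 87.8% of embryos.

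The genes next in order of p were mostly lower in B6/Cast embryos. Log2 fold changes were -0.59 for *Slx1b*, a subunit of a structure-specific nuclease, -0.46 for *1810020D17Rik*, -0.70 for *Art5*, an ADP-ribosyltransferase, -0.78 for *Tufm*, the mitochondrial elongation factor, -0.70 for *Alg8*, a glycosyltransferase of the endoplasmic reticulum, and -0.64 for *E430018J23Rik*. They were -0.33 for *Nsmce4a*, a subunit of the SMC5-SMC6 complex, -0.36 for *Inppl1*, an inositol phosphatase, and -0.67 for *Myo7a*, an unconventional myosin. Higher in B6/Cast embryos were *Cd2bp2* (0.32), *D930014E17Rik* (0.54) and *3110040N11Rik* (0.54). All of these had adjusted p-values of 3.34e-04 or less in edgeR, and *Slx1b*, *Tufm*, *E430018J23Rik* and *Cd2bp2* lie between 22.7 and 23.6 Mb from the locus. The other 15 called genes of the chromosome beside *Hbb-bh1* include *Ilk*, a kinase of integrin adhesions (-0.46), *Pgap2*, *Scube2* (-0.46), *Dkk3*, a secreted relative of Wnt inhibitors (0.46), and *Mgmt*, a DNA repair enzyme (0.27).

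To see whether the genotype at the locus or that of the gene itself went with expression, each gene was also fitted with its own genotype in place of that at *Hbb-b1*, in a linear model on log2(RPM + 1). All 31 called chromosome 7 genes passed with their own genotype, and 20 of the 29 with a position had a larger log2 fold change than with that at *Hbb-b1* in the same model. For *Hddc3* it was 1.78 against 1.24, for *Nosip*, at -58.65 Mb with the same genotype in 72.8% of embryos, -0.59 against -0.30, and for *Mgmt* 0.61 against 0.27. The 31 genes were chosen by calls at *Hbb-b1* and shared its genotype in a median of 98.0% of embryos. Their passing was thus largely given. *Hbb-bh1* and *Ilk*, with that genotype in every embryo, could not have a larger value. Each with its own genotype, 196 of 792 chromosome 7 genes passed (24.7%), beside 21.6% of 10039 genes overall. With both genotypes in 1 model, no gene on any chromosome was called for that at *Hbb-b1*, among the 10015 in which the 2 could be separated (402 had an unadjusted p under 0.05). Close to the locus the 2 genotypes differ in few embryos, and their effects can hardly be told apart there. The globin genes of the cluster are not among these, since their genotype was that of *Hbb-b1* in every embryo.

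Allele fractions were set beside the called chromosome 7 genes in the same way as for the globins. In F1 embryos 26 of the 31 had at least 20 votes in 5 or more embryos, and for 25 of them the stronger allele and the measured difference were on the same side. The exception was *Ilk*, with a mean F1 BAF of 0.455 and a measured log2 fold change of -0.46. In N2 embryos that were B6/Cast at the gene itself, a group that differs from gene to gene, it was 18 of 19, with *Sbk1* as the exception (0.503 and 0.28). These counts describe genes that were chosen for a difference, not a test. Sizes could differ. At *Rps3* the mean N2 BAF of 0.534 gives a log2 value of -0.10 and the mean F1 BAF of 0.615 one of -0.30, against the measured -0.70. The N2 BAF of *Rps3* was widely spread, from 0.0455 through a median of 0.579 to 0.735 (SD 0.142, n = 61). At *Itpripl2* the values were 1.55 from N2 votes, 0.14 from F1 votes and 0.84 measured.

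**Figure D4:**
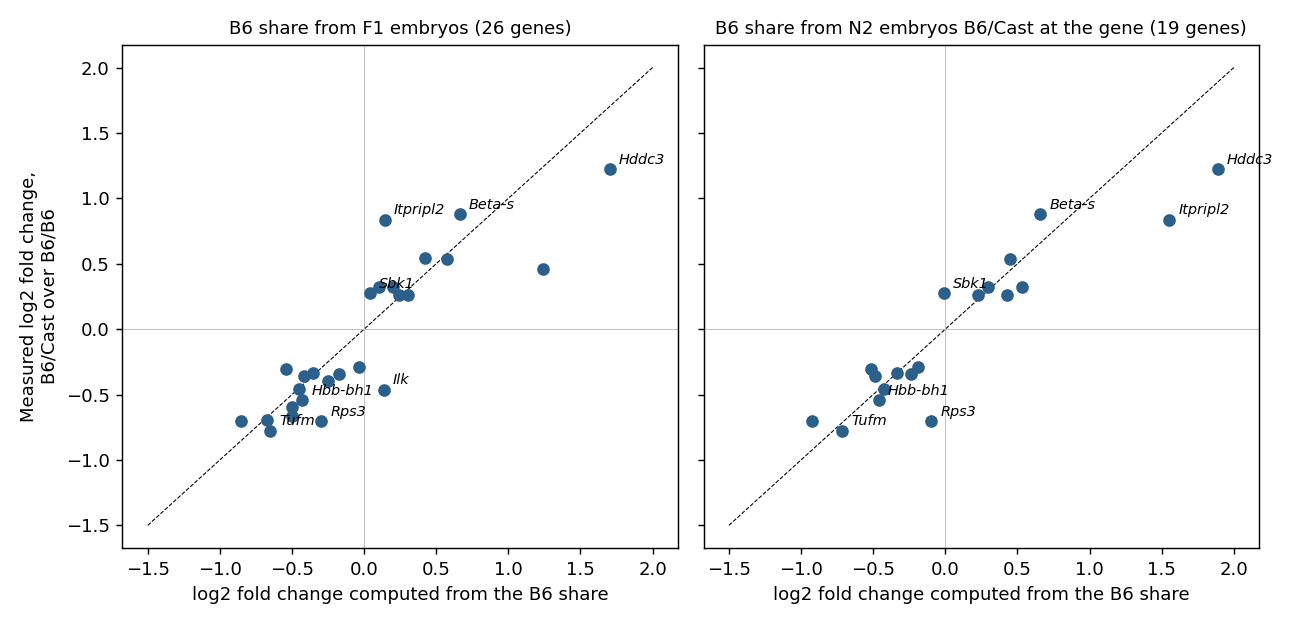
Measured log2 fold change of called chromosome 7 genes against the value computed from the B6 share of allele votes, in F1 embryos (left, 26 genes) and in N2 embryos that were B6/Cast at the plotted gene (right, 19 genes), with a dashed line at equality. *Beta-s* and *Hbb-bh1* lie close to the line in both panels, *Rps3* lies below it, and *Ilk* (left) and *Sbk1* (right) lie on the other side of 0.

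Outside chromosome 7 the called gene was *Arl16*, a small GTPase on chromosome 11 (chr11:120326180-120328921 in mm9). It ran from 20.5 RPM through 54.9 to 107 in B6/Cast and from 25.8 through 46.0 to 86.7 in B6/B6 embryos (log2 fold change 0.22, SE 0.05, adjusted p = 0.0239, edgeR). *Arl16* differed by its own genotype in the opposite direction (-0.26), and with that genotype in the model the log2 value for the one at *Hbb-b1* was 0.16 (unadjusted p = 0.00304). The call was lost under 15 of 35 alternatives. The genes with the next smallest p-values outside chromosome 7 were *Htra2*, a mitochondrial protease (0.19, adjusted p = 0.0653), *Acad12*, an acyl-CoA dehydrogenase family member (-0.79, 0.0875), *Slc25a11*, a mitochondrial carrier (0.17, 0.158), and *Trip6* (-0.26, 0.178). In the linear model, *Acad12* and *Trip6* differed by their own genotype in the opposite direction (2.09 and 0.30). That genotype was the one at *Hbb-b1* in 38.4% and 38.8% of embryos. With it in the model, the log2 values for the one at *Hbb-b1* were -0.15 and -0.19. They were 0.20 at *Htra2* and 0.18 at *Slc25a11*. At an unadjusted p under 0.05 there were 339 of 9248 genes (3.67%) outside and 118 of 792 (14.9%) on chromosome 7.

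Erythroid genes of other chromosomes showed no call. Of 77 such genes in a list of heme enzymes, transcription factors, membrane, iron and other red-cell genes, 65 passed the minimum of 5 RPM. DESeq2 called 0 of them, and *Arl16* and *Htra2* among all genes outside chromosome 7. In edgeR 0 were called in either direction, where 0.0108% of all genes outside chromosome 7 were called. At an unadjusted p under 0.05 there was 1 of the 65, against 3.67% of those genes. Their log2 fold changes ran from -0.27 to 0.35 with a median of 0.04, beside a median of 0.00253 over all genes outside chromosome 7, and 41 lay above and 24 below 0. The 95% interval of 64 of the 65 lay within a 1.5-fold change in either direction. Their summed level ran from 3641 RPM through 6479 to 9807 in B6/Cast and from 3424 through 6648 to 9706 in B6/B6 embryos.

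By role, the 10 heme synthesis genes had a median log2 fold change of -0.01. Among those with the smallest p, the log2 fold change was 0.06 for *Slc25a38*, a mitochondrial glycine carrier, and 0.07 for *Fech*, which inserts iron. Outside the rule for named genes, *Alas2*, the rate-limiting enzyme in red cells, had medians of 320 and 346 RPM and a log2 fold change of -0.02 (95% interval -0.23 to 0.18). The 14 transcription factors had a median of 0.06, with *Gfi1b* (0.18), *Klf3* (0.15) and *Zbtb7a* (0.07) at the smallest p. Also outside that rule, the log2 fold change was 0.09 (95% interval -0.07 to 0.25) for *Klf1*, an activator of adult beta-globin, and 0.02 (-0.09 to 0.13) for *Bcl11a*, a repressor of embryonic globins. *Myb*, at medians of 3.03 and 1.49 RPM, had a log2 fold change of 0.10 with a wide interval (-0.27 to 0.47).

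The 17 membrane and cytoskeleton genes had a median of 0.04. They held the single gene at an unadjusted p under 0.05, *Spnb1*, erythroid beta-spectrin (medians of 5.07 and 5.18 RPM, log2 fold change -0.24, unadjusted p = 0.0392, adjusted p = 1.00 in edgeR). *Add2*, beta-adducin, was at 0.11, and *Slc4a1*, the anion exchanger band 3, was at 0.06 (95% interval -0.13 to 0.24). The 9 iron genes had a median of 0.07, with -0.08 for *Slc11a2*, an iron transporter, 0.11 for *Trf*, transferrin, and -0.07 for *Glrx5*, which takes part in iron-sulfur cluster assembly. The 15 enzymes and other genes had a median of 0.06, with 0.35 for *Trim10* (medians of 6.41 and 3.52 RPM, unadjusted p = 0.0565), -0.13 for *Prdx2*, an antioxidant of red cells, and 0.12 for *Pklr*, the pyruvate kinase of red cells and liver. The 2 tested erythroid genes of chromosome 7, *Uros* and *Blvrb*, were at 0.06 and 0.10.

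**Figure D5:**
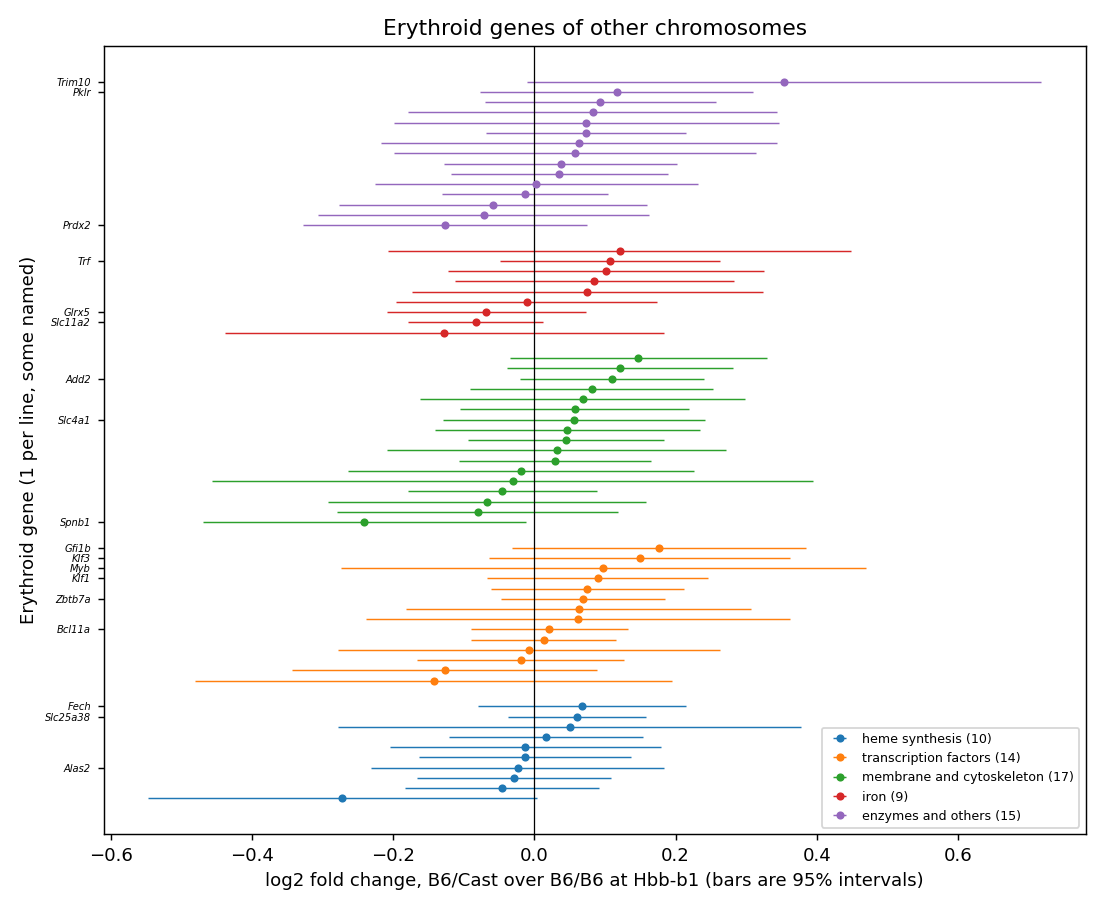
Log2 fold change between B6/Cast and B6/B6 embryos with its 95% interval for 65 erythroid genes of other chromosomes, coloured by role, with the genes described in the text named on the axis. All points lie between -0.27 and 0.35, and all intervals except that of *Spnb1* include 0.

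Markers of other cells that surround or share the blood were given by the same test. Of 16 tested markers of hepatoblasts, macrophages, megakaryocytes and endothelium, 0 were called (edgeR; 0.0108% of genes outside chromosome 7 were called), and 1, the megakaryocyte gene *Gp9*, had an unadjusted p under 0.05 (log2 fold change 0.20; 3.67% of those genes did). All 6 hepatoblast markers lay above 0, with a median log2 fold change of 0.09. Their summed level ran from 374 RPM through 960 to 2389 in B6/Cast and from 184 through 1007 to 2217 in B6/B6 embryos. The part of cell composition in the globin differences was not tested.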

How the data were processed

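RNA of single whole embryos was profiled by 3SEQ. The authors trimmed poly(A), aligned reads with Bowtie2 (version not given in the sources used here) to mm9 and to a Cast genome built from SNPs, and discarded reads that aligned nearly as well elsewhere. The authors deposited raw counts per gene, allele votes as fractional values (estimated counts), and a genotype score per gene and embryo (0.5 for B6/Cast, 1.0 for B6/B6). Embryos were grouped by the score at *Hbb-b1*. Genes whose mean over embryos reached 5 RPM were fitted with edgeR 4.0.16 (quasi-likelihood F test, TMM scaling, R 4.3.3) on lane, somite number and genotype, and called at a Benjamini-Hochberg adjusted p under 0.05. Fold changes are B6/Cast over B6/B6. DESeq2 1.42.0 and limma 3.58.1 served as alternatives. Ratios and allele output were tested by permuting residuals 100000 times, two-sided. In counts simulated for this comparison (10040 genes) the fit called 48% of genes changed 1.25-fold, 94% changed 1.5-fold, 98% changed 2-fold and 8 of 9840 unchanged ones. These counts were drawn independently for each embryo, without effects of litter, lane or somite number. They thus do not measure recovery or false calls in the embryos themselves. Depth was 245220 to 5370322 counts per embryo. Of 168 N2 columns, those with no genotype, mother or somite number were not used. Positions are those of GENCODE in mm9.

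Named were all globin genes, the 3 erythroid genes of smallest p in each role, the 5 tested genes nearest to *Hbb-b1* on each side, the 15 chromosome 7 genes of smallest p, the called gene and those of smallest p elsewhere, and genes called for genotype by somite number. Of the erythroid genes so named, 2 are not reported here singly. Other genes named were chosen after their values were seen, among them *Htra2*, *Acad12*, *Slc25a11*, *Trip6*, *Alas2*, *Klf1*, *Bcl11a*, *Myb* and *Slc4a1*. The members and gene lists were chosen with earlier results of these data known. The linear model on log2(RPM + 1), the terms for genotype by mother and by flowcell, the B6-allele output, the allele fraction by stage and by F1 cross and 2 of the globin ratios were added after the data were seen.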

Additional observations from a re-analysis of the deposited data

Results flagged for a closer look

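4 genes passed the test for a genotype difference that changed with somite number (edgeR, 4 of 10040 genes), a test of the difference itself. The log2 fold change between B6/Cast and B6/B6 embryos moved per somite by 0.089 at *Cenpm*, a centromere protein, and by 0.125 at *Sh3bgrl3*. It moved by -0.145 at *Rragd*, a GTPase of amino acid sensing, and by -0.141 at *Fbln2*, an extracellular matrix protein. DESeq2 called 67 genes for the same term. The count was 1030 in embryos of B6 mothers alone and 0 in those of F1 mothers alone.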

How the results depend on the processing

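No paired analysis was possible because the replicate numbers, on which it would rest, only name embryos. Comparisons within litters were run instead, and *Beta-s* and *Hbb-bh1* stayed called with litter in place of lane and with litter as a random block. Over 1116 alternative values of the 31 called chromosome 7 genes, 988 kept direction and call, 128 kept direction only and 0 reversed. Erythroid calls on other chromosomes were 0 in all 34 alternatives. Chromosome 7 calls numbered 12 in flowcell 2, 15 with B6 mothers, 11 with F1 mothers and 196 with each gene's own genotype, and 28 to 33 with 1 lane left out. Fewer embryos entered the first 3 of these. The 1 call elsewhere became 2 with DESeq2, no filter, the mother added, limma voom with a litter block and embryos of greater depth, 3 with a rank-sum test, and 0 without lane, with litter, in either flowcell, with F1 mothers and with the gene's own genotype added (0 to 3 with 1 lane left out). In embryos with 1 genotype within 20 Mb, *Htra2* and *Slc25a11* were called there and *Arl16* was not. Globin calls numbered 1 without lane, in flowcell 1 and with F1 mothers, and 0 without somite number (also over all embryos with a genotype), in flowcell 2 and with B6 mothers, and 1 to 2 with 1 lane left out. Calls for genotype by somite number were 1030 with B6 mothers, 0 with F1 mothers, 67 with DESeq2, 0 without lane and 2 with a quadratic somite term. Of the globins followed, *Hbb-y* passed under 1 of these 5 alternatives. The adult to embryonic ratio lost its call with B6 mothers (0.32) and without *Beta-s* (0.036). The cause of these changes was not tested.

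Among globin genes that were not called, the log2 fold change of *Hbb-b2* turned to -0.0041 without lane, -0.082 without somite number, -0.050 over all embryos with a genotype, -0.044 in flowcell 2, -0.11 with B6 mothers and -0.0070 without lane C (-0.0070 to 0.198 with 1 lane left out). *Hbb-y* turned to -0.018 with litter, -0.024 in flowcell 2 and -0.0093 in embryos with 1 genotype within 20 Mb. *Hba-a1* turned to 0.17 with F1 mothers. *Hba-x* turned to 0.026 over all embryos with a genotype, 0.055 with F1 mothers, 0.026 without lane F and 0.023 without lane N (-0.133 to 0.026 with 1 lane left out). *Hbq1b* turned to 0.055 in flowcell 2 and 0.14 with F1 mothers. The share of all globin genes turned to 0.10 with F1 mothers. The change per somite turned to -0.0014 at *Hbb-b2* and -0.0044 at *Hbb-y* with F1 mothers and to -0.047 at *Hbb-bh1* without lane. The B6-allele output turned to -0.17 at *Beta-s* and -0.14 at *Hbb-b2* with B6 mothers and to 0.18 at *Hbb-y* with F1 mothers.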
